A study of Homo sapiens with 4 samples.

Results

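SMAD3 peaks at the ends of protein-coding genes were described in chromatin from A549 cells, a human lung adenocarcinoma line. A peak was counted here when its summit lay within 1 kb of either end of a RefSeq protein-coding gene on chromosomes 1 to 22 and X, a rule that used position alone. It selected 277 of the 6972 SMAD3 peaks on these chromosomes (3.97%, 95% Clopper-Pearson interval 3.53 to 4.46%). The SMAD3 list held 7184 peaks in all and the whole series 16650. Intervals on shares and densities cover counting error only.

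All libraries came from A549 cells that carried ATOH8, a basic helix-loop-helix factor, by stable retroviral transduction, and that were grown in DMEM with 10% fetal bovine serum. Chromatin immunoprecipitation sequencing (ChIP-seq) was done once with an antibody to SMAD3 and once with an antibody to FLAG, each with its own input library. No group without ATOH8 and no TGF-beta treatment appears in the labels, so the peaks describe SMAD3 in ATOH8-carrying cells only. With 1 library per antibody there is no replicate check on any value, and RNA was not measured, so the A549 label could not be set against marker genes.

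SMAD3 is a transcription factor that TGF-beta and activin receptors phosphorylate, after which it enters the nucleus together with SMAD4. It binds short DNA elements weakly by itself and is known for acting beside other DNA-binding factors at promoters and enhancers. In lung epithelial cells the pathway is best known for growth arrest, matrix production and epithelial to mesenchymal transition.

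The sequences that bear most directly on these peaks are promoters that hold a SMAD3 summit. RefSeq promoter windows, each running from 250 bases before a gene start to 50 bases after it, held a gene-end summit at 24 protein-coding genes. The 6 stretches below show the range among them: a housekeeping gene with a FLAG peak on the same interval (EEF1A1), the only printable one with a match to the 5-base SMAD element (SLC39A5), an AT-rich one (GLYATL1B), the one with the summit closest to the start (RECK), a DNA repair gene (APEX2) and the one with most matches to the GC-rich SMAD element (ZFP82). They are RefSeq sequence of GRCh38.p14, written 5′ to 3′ on the gene's own strand, they end at the base before the gene start, and they leave out bases that another annotated gene covers. Capitals mark matches on either strand to CAGAC or GGCGC, which run together where matches overlap.
EEF1A1: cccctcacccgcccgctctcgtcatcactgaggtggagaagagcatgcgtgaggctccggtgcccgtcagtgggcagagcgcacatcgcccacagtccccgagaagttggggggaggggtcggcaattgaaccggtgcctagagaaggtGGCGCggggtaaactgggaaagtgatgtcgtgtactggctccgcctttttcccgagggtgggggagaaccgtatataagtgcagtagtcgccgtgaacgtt
SLC39A5: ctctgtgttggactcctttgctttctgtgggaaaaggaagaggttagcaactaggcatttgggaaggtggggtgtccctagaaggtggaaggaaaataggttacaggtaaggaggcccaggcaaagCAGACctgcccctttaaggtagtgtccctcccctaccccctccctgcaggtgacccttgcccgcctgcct
GLYATL1B: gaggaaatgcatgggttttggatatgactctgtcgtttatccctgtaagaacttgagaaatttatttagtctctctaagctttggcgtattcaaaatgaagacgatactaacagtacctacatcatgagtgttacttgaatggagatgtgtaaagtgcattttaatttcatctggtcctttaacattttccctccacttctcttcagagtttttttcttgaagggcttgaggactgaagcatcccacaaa
RECK: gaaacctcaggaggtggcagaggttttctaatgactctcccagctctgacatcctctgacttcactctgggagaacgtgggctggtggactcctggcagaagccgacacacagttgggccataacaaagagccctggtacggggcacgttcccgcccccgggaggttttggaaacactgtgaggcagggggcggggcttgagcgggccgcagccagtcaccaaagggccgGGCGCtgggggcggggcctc
APEX2: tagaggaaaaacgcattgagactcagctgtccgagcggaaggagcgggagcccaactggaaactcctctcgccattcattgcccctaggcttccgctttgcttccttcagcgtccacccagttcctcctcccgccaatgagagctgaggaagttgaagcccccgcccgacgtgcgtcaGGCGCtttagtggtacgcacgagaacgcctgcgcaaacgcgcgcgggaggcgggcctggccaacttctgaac
ZFP82: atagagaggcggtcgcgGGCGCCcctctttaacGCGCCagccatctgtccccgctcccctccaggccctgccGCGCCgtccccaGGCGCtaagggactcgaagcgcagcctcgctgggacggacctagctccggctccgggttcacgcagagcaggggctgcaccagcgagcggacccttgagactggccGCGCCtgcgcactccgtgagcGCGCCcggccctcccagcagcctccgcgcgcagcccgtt
The summit in EEF1A1, which encodes the elongation factor that brings tRNAs to the ribosome, lay 66 bp before the start at chr6:73521033-73521282 on the minus strand. SLC39A5, a zinc importer, had its summit 55 bp before the start at chr12:56229855-56230050, and NABP2, a single-stranded DNA-binding protein gene, ends just upstream of that stretch. In GLYATL1B, a glycine N-acyltransferase-like gene, the summit lay 139 bp before the start at chr11:59086057-59086306. RECK, a membrane-anchored inhibitor of matrix metalloproteinases, had its summit 6 bp before the start at chr9:36036663-36036912. The APEX2 summit, at an apurinic endonuclease gene, lay 60 bp before the start at chrX:55000113-55000362, and the ZFP82 summit, at a zinc finger gene, 73 bp before the start at chr19:36418645-36418894 on the minus strand. These 6 peaks had 10 tags at EEF1A1, 7 at SLC39A5, 7 at GLYATL1B, 6 at RECK, 8 at APEX2 and 11 at ZFP82. Over all gene-end peaks the median was 7 tags (quartiles 6 and 8), so EEF1A1 and ZFP82 stood above the upper quartile.

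Motif content of these promoters was close to that of promoters in general. Each motif was searched on both strands in the whole 300-base windows, and every CAGAC match is also an AGAC match. The 4-base SMAD element AGAC was in 20 of the 24 windows (83.3%), against 82.8% of the 22131 windows that the table gives for 15811 protein-coding genes, some with several starts. CAGAC was in 12 of 24 (50%, interval 29.1 to 70.9%) against 44.9%, and the GC-rich element GGCGC in 17 of 24 (70.8%, 48.9 to 87.4%) against 60.02%. The AP-1 element TGANTCA, bound by FOS and JUN proteins, was in 0 of 24, which allows a share of up to 14.2% by the exact interval, against 6.15% of all. The E-box CANNTG, the element of bHLH factors such as ATOH8, was in 17 of 24 (70.8%) against 65.1%. Over the 151 starts that lay within 1 kb of a summit, GGCGC was in 110 windows (72.8%, 65.0 to 79.8%), and the interval lay above the 60.02% of all windows. These 151 windows were also richer in G and C, with a median of 65.7% against 62.3%, and the part of base composition in the GGCGC share was not tested. CAGAC, at 47.0%, and the E-box, at 62.3%, had intervals there that included the share of all windows.

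The peaks at gene ends were low. For every peak the authors gave the pileup, which is the number of overlapping tags at the summit, and the fold enrichment over the local background, which is their own value and was used only within the SMAD3 list. The 277 peaks had a median fold of 3.08 (quartiles 2.70 and 3.52) and a median pileup of 7 tags (6 to 8). The other SMAD3 peaks had medians of 3.09 and 7 tags, so the medians of both sets were alike. Pileups were 5 tags at 14 peaks, 6 at 76, 7 at 77, 8 at 61 and 9 at 26, and 5 peaks (1.81%) had 16 tags or more, against 4.63% of all SMAD3 peaks. The background that the fold implies was at its genome-wide floor of 1.27 tags at 65 of the 277 and reached 5 tags or more at 4, namely ATOH8, LOC101929601, LOC124901647 and GAGE12J.

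**Figure D1:**
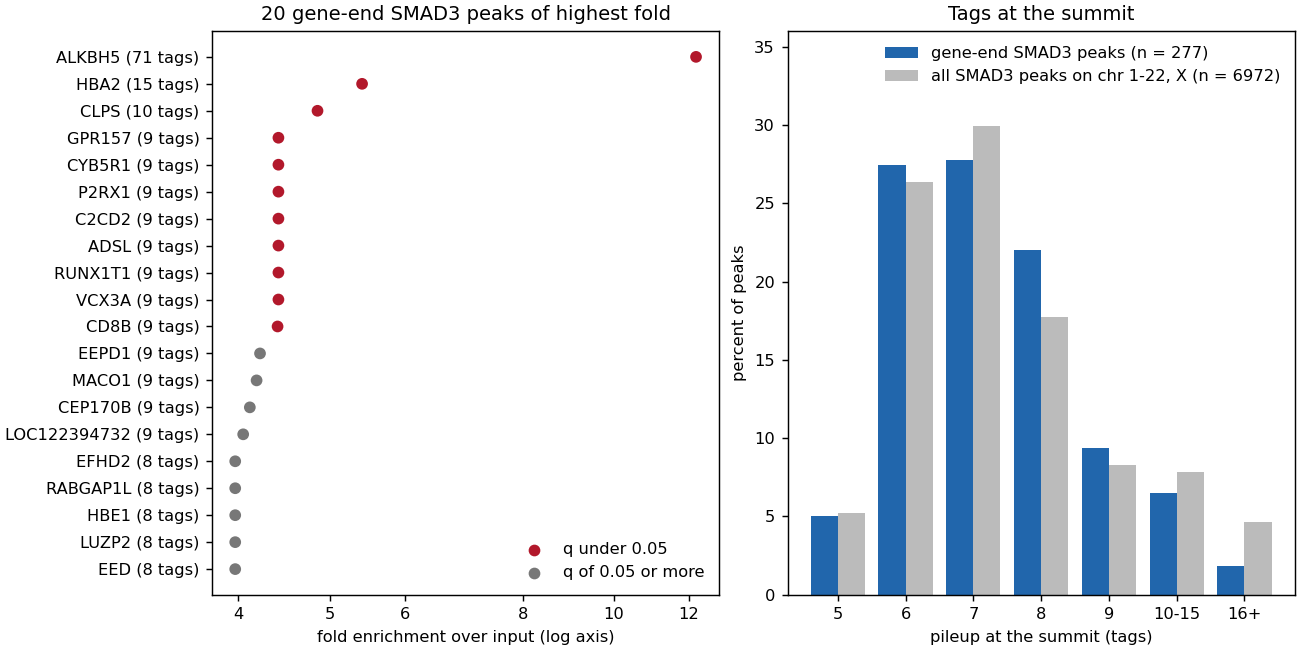
Left, fold enrichment over input (log axis) of the 20 gene-end SMAD3 peaks with the highest fold, with gene names, tags at the summit and colour by q. ALKBH5 stands apart at 12.2 with 71 tags, and the 11 peaks with a q under 0.05 reach down to 4.40. Right, percent of peaks by tags at the summit for the 277 gene-end peaks and all 6972 SMAD3 peaks, where both sets peak at 6 to 8 tags.

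A q under 0.05 was reached by 11 gene-end peaks (3.97%, interval 1.999 to 6.99%), against 7.54% of all SMAD3 peaks on these chromosomes. That background was made up of unlike parts: 2.72% of peaks inside genes, 3.84% of peaks outside genes but within 250 kb, and 23.04% of peaks farther than 250 kb from any protein-coding gene had such a q. At 155 gene-end peaks (56.0%) the deposited −log10 q was 0, so these passed only the permissive p cutoff of 0.0065. The same held for 51.5% of all SMAD3 peaks on these chromosomes. By place it held for 57.2% inside genes, 54.6% outside genes but within 250 kb, and 35.4% farther away.

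The 11 peaks with a q under 0.05 lay at genes of unlike function. ALKBH5, which encodes an RNA demethylase that removes N6-methyladenosine, had 71 tags and a fold of 12.2, with the summit 878 bp inside the gene from its start (chromosome 17, 18184253 to 18185018). Its implied input background was 4.90 tags, against a median of 1.53 over the gene-end peaks. HBA2, an alpha-globin gene, had 15 tags and 5.41-fold at 331 bp outside the gene, and it is nearly identical in sequence to HBA1, so tags there may be split or shared. CLPS, the colipase that pancreatic lipase needs, had 10 tags and 4.85-fold. The next 7 had 9 tags each on the floor background and the same fold of 4.41. They were GPR157, an orphan G protein-coupled receptor, CYB5R1, a cytochrome b5 reductase, P2RX1, an ATP-gated ion channel, C2CD2, ADSL, an enzyme of purine synthesis, RUNX1T1, a transcriptional corepressor, and VCX3A, a testis gene of a multicopy family on chromosome X. CD8B, a T-cell coreceptor chain, had 9 tags and 4.40-fold. Only ALKBH5, HBA2 and CLPS had more than 9 tags, so the other 8 rest on 9 tags each, and peaks with 8 tags on the floor background had a −log10 q of 0.700.

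Below them, EEPD1, a nuclease-related gene, had 4.22-fold, MACO1 4.18, CEP170B, a centrosomal protein gene, 4.11, and LOC122394732 4.05, each with 9 tags. A run of 15 peaks with 8 tags followed at 3.97-fold. Among these were HBE1, the embryonic beta-type globin, EED, a subunit of Polycomb repressive complex 2, NFAT5, the osmotic stress factor, CLCN2, a chloride channel, ARFGEF3, TYRP1, a melanin enzyme, C9orf72 and IDS, the lysosomal iduronate sulfatase. The equal folds in this run mark equal tag numbers on the floor background and give no order among these genes.

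Summits were denser at starts than at 3′ ends. Orientation was known for 244 of the 307 pairs of a peak and a gene, and 152 of them (62.3%, interval 55.9 to 68.4%) were at the start and 92 at the 3′ end. Within 1 kb of gene starts there were 138 summits, or 4.69 per Mb (interval 3.94 to 5.54), and within 1 kb of 3′ ends 91 summits, or 3.02 per Mb (2.43 to 3.70). Inside protein-coding genes as a whole the density was 2.29 per Mb (2.21 to 2.37). The intervals of starts and 3′ ends did not overlap. In windows of 3 kb they did, at 3.33 per Mb (2.96 to 3.74) and 3.03 per Mb (2.68 to 3.42).

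Pairs per 250 bp were most numerous just downstream of starts. In steps of 250 bp along the gene, the steps from 0 to 750 bp held 21, 25 and 27 pairs, the 4 steps before the start 16 or 17 each, and steps beyond 1.5 kb on either side 4 to 11 each. The summit lay inside the gene in 86 of 152 start pairs (56.6%, 48.3 to 64.6%, which includes 50%), and within 250 bp of the start in 38. At 3′ ends the steps out to 3 kb on either side held 4 to 17 pairs with no rise towards the end, and 47 of 92 summits lay inside the gene. Median folds were 3.09 at starts and 3.002 at 3′ ends, with quartiles of 2.74 to 3.53 and 2.70 to 3.35, so height did not separate the 2 kinds of end.

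**Figure D2:**
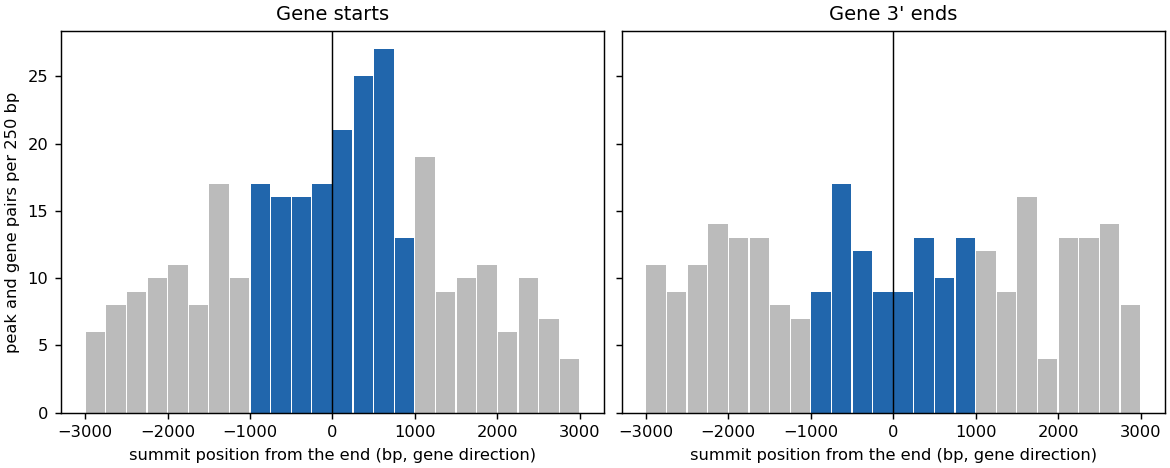
Pairs of a SMAD3 peak and a gene per 250 bp, by the position of the summit from the gene start (left) or 3′ end (right) in the direction of the gene (bp); blue marks the 1 kb window, grey the flanks. The bars at starts reach 27 in the step from 500 to 750 bp, whereas bars at 3′ ends stay between 4 and 17.

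The FLAG list, called from its own library, had 338 gene-end peaks. Of its 268 with known orientation 189 (70.5%, 64.7 to 75.9%) were at a start, against 137 of 221 (62.0%, 55.2 to 68.4%) in the SMAD3 list, and these intervals overlap. The 1 kb limit cut through a continuous range, since the members just inside it were SCAP at 983 bp, GIT1 at 991 bp and VPS13A at 997 bp, and the first peaks outside it MPRIP at 1016 bp, TRIO at 1017 bp and C16orf46 at 1020 bp. Their pileups were 6, 8 and 8 tags inside and 6, 9 and 6 tags outside.

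A single peak lay at the ends of 2 genes in 30 cases (10.8% of 277), and 12 of these were starts of a pair of genes that diverge from each other. They included ANKS3 with DNAAF8, a cilia assembly gene (8 tags, 3.86-fold), DNAAF10 with PNO1, a ribosome assembly factor (7 tags, 3.53-fold), LSM5, an RNA-binding subunit of the LSM ring, with AVL9 (7 tags, 3.52-fold), and SARS2 with MRPS12, which both serve mitochondrial translation (9 tags, 3.42-fold). The DNA polymerase gene POLL with DPCD had 7 tags and 3.32-fold, and the zinc finger pair ZNF490 with ZNF791 6 tags and 3.09-fold. Others in this class were PKLR, pyruvate kinase of liver and red cells, with FDPS, an enzyme of isoprenoid synthesis, TRMT6, a tRNA methyltransferase subunit, with MCM8, a helicase of DNA repair, and PGAP3 with ERBB2, a receptor tyrosine kinase, whose gap is 36 bp. The remaining divergent pairs were WDR87 with SIPA1L3, POLR3K with SNRNP25 and KNOP1 with IQCK. How often protein-coding gene ends in general lie this close to an end of a second gene was not computed. The counts of 2-gene peaks and of divergent starts therefore have no background beside them.

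Other 2-gene peaks lay where 3′ ends converge, in 4 cases. These were RYR1, the calcium release channel of muscle, with the kinase gene MAP4K1 (11 tags, 3.35-fold), SPTAN1 with DYNC2I2, ADORA1 with MYBPH, and TNRC6C with TMC6. A start and a 3′ end shared a peak in 4 cases, among them NABP2 with SLC39A5 and FANCE with RPL10A, starts on the same strand in 3, and orientation was missing for 7, such as FGF8 with NPM3. COMMD3 with COMMD3-BMI1 and ABCF2 with ABCF2-H2BK1 are read-through models that use the start of their partner, so each such peak stands at 1 start.

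Only 3 genes had 2 gene-end peaks each. FBXO17, an F-box protein of ubiquitin ligases, had 7 tags at its 3′ end (207 bp inside) and 7 tags at its start (147 bp before). VAC14, a scaffold for endosomal lipid kinases, had both at its start, 6 tags 630 bp inside and 7 tags 921 bp before. GAGE10, a cancer-testis gene with many near-identical copies, had 13 tags at each of 2 summits around its 3′ end, so the gene of origin of those tags is uncertain.

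Gene families were drawn from symbol patterns, and 1.52% of 19970 protein-coding genes (304) had a gene-end SMAD3 peak, which is the share each family is read against. Of the 304 genes 165 fell in at least 1 of 31 families and lists, and 139 in none. A percent above 1.52 was found in 18 of the 31, and a 95% interval that left out 1.52 in 1. No family stood below it in that sense. Most families were thus near the background, and with 31 intervals read side by side 1 outside it is no result about that family.

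**Figure D3:**
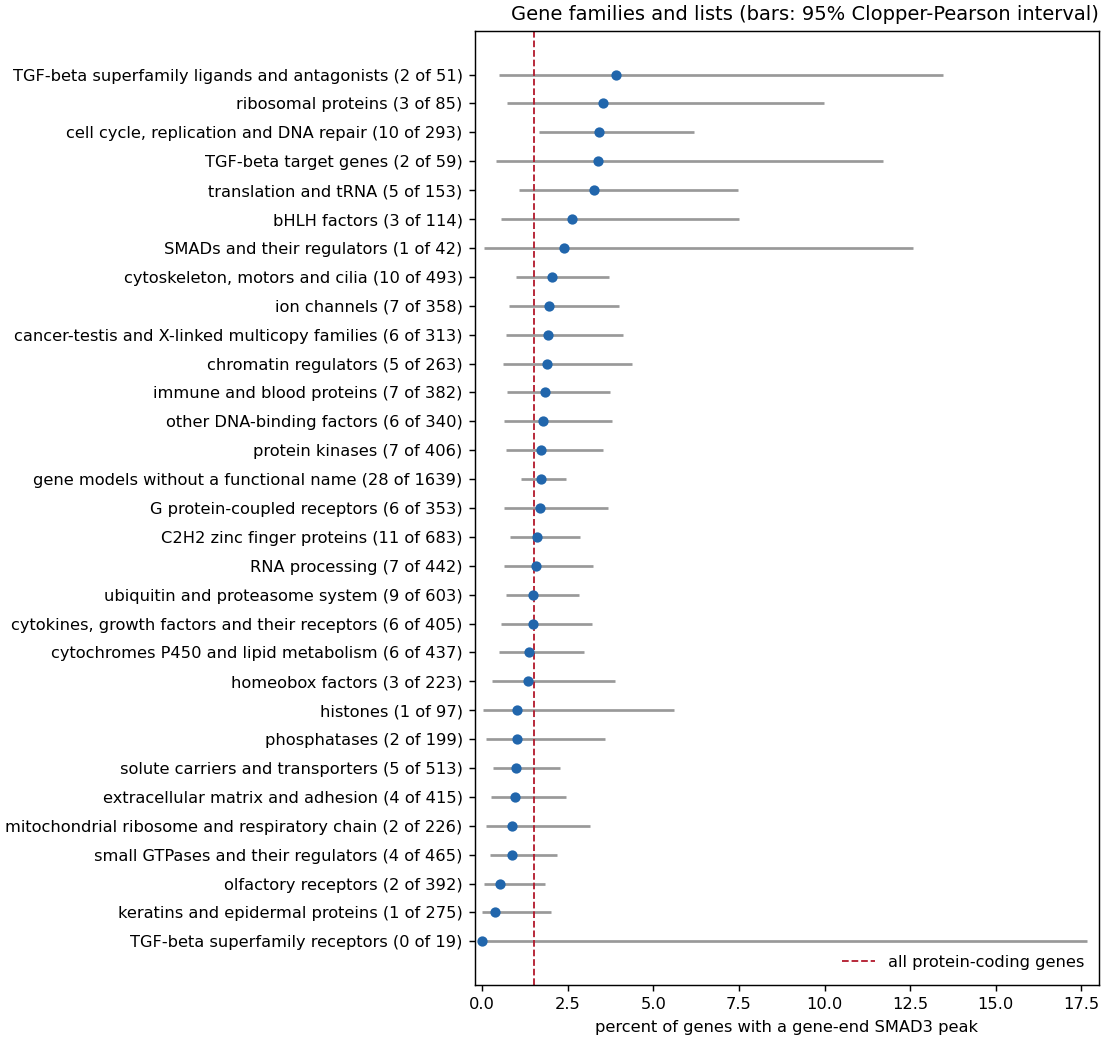
Percent of the genes of each family or list with a gene-end SMAD3 peak (point, with its 95% Clopper-Pearson interval as a line, and counts in the labels), with 1.52% of all protein-coding genes as the dashed line. Intervals of 30 of the 31 families cross the line, and cell cycle, replication and DNA repair lies above it at 3.41%.

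Cell cycle, replication and DNA repair was the family outside: 10 of 293 genes (3.41%, interval 1.65 to 6.19%) had a peak and 0 of them a q under 0.05. CDC25C, the phosphatase that activates CDK1 at mitotic entry, had 8 tags and 3.56-fold with the summit 870 bp before its start. PCNA, the sliding clamp of DNA polymerases, had 9 tags and 3.14-fold at 965 bp inside from its start. Both lay near the edge of the window. POLE2 and POLE4, subunits of the leading-strand polymerase, had 6 tags each, at 2.88-fold 355 bp before the start and at 3.002-fold 515 bp inside the 3′ end. POLL, a gap-filling repair polymerase, had 7 tags, MCM8 9 tags, RAD51C, a recombination protein, 7 tags at its 3′ end, FANCE, of the Fanconi anaemia core complex, 6 tags at its 3′ end, and ERCC6L2 7 tags at its 3′ end. The tenth, CCNT1, is a cyclin of the transcription elongation kinase and not of the cell cycle, with 7 tags 296 bp past its 3′ end. Without CCNT1, a choice made after seeing the data, 9 of 292 genes (3.08%, 1.42 to 5.77%) had a peak and the interval included 1.52%. Thus 1 gene decided whether this family, as its symbol pattern drew it, stood outside. The pattern also missed genes of this kind with a peak, such as APEX2 and NABP2. Genes without a peak that it missed were not counted. Within 500 bp of a gene end 5 of the 293, CCNT1 among them, had a peak (1.71%), against 0.786% of all genes. With starts alone 5 had one (1.71%), against 0.756%. Both sets of 5 were drawn from the same 10 genes, so these settings are not separate tests. Within 3 kb 15 had a peak (5.12%), against 3.6% of all genes, and at 4-fold or more 0 had one. No intervals were computed for these settings, so whether the family stood outside the background in them was not tested.

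Within the 1 kb window genes of protein synthesis were not set apart from the background, since the interval of each of the lists below includes 1.52%. Ribosomal proteins had 3 of 85 (3.53%, 0.734 to 9.97%), namely RPL10A, RPL28 and RPL30 at 2.86- to 3.09-fold. Translation and tRNA genes had 5 of 153 (3.27%, 1.07 to 7.46%): EEF1A1, SARS2, the mitochondrial seryl-tRNA synthetase, TRMT6, PUS10, a pseudouridine synthase, and ELP4, of the Elongator complex. EEF1A1 was the strongest with 10 tags and 3.72-fold. Within 500 bp the counts stayed at 5 of 153 and 3 of 85, against 0.786% of all genes. The translation and tRNA interval lies above that lower share, and the ribosomal interval includes it. With starts alone the shares were 1.96% and 1.18%, against 0.756%, and within 3 kb 3.92% and 5.88%, against 3.6%. This window is 1 of several settings read over 31 families, so it is no result about either list. Mitochondrial ribosome and respiratory chain genes had 2 of 226 (0.885%), MRPS12 and MRPL35 (0.107 to 3.16%). A wider grouping by role, made after the members were seen and so given no share, held 19 genes of RNA polymerase III, ribosome assembly and translation, such as POLR3K, GTF3C2, MPHOSPH10 and NEMF, with a median fold of 2.98. The NEMF summit, 977 bp before its start, lay 149 bp from an end of RN7SL3, a gene of the signal recognition particle RNA.

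Genes of RNA processing were at the background with 7 of 442 (1.58%, 0.639 to 3.24%). ALKBH5 was the only one with a q under 0.05, and LSM5, INTS10, of the Integrator complex, XRN2, the nuclear exonuclease of termination, and POLR3K, of RNA polymerase III, were at 2.43- to 3.52-fold. WDR87 was counted there through its symbol pattern alone.

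DNA-binding factors were likewise close to 1.52%. C2H2 zinc finger proteins, the largest such family, had 11 of 683 (1.61%, 0.807 to 2.86%), all between 2.25- and 3.53-fold, led by ZNF346, ZNF829, ZNF490 and ZNF791. Homeobox factors had 3 of 223 (1.35%), led by PAX6, a regulator of eye development, with 8 tags 119 bp inside its start. Of bHLH factors 3 of 114 (2.63%, 0.546 to 7.50%) had a peak, HEY1, a Notch target, at 3.83-fold, TCF4, an E protein, at 3.53-fold 713 bp before its start, and ATOH8. Other DNA-binding factors had 6 of 340 (1.76%), among them NFAT5, CREB3L2, TBX20, FOXK1 and FOXD4L5, the last a member of a nearly identical gene group. The sixth, MYBPH, is a myosin-binding protein that the symbol pattern caught. Chromatin regulators had 5 of 263 (1.90%): EED, TAF3 and MED10 of the transcription machinery, ARID3A and SMARCC2, a SWI/SNF subunit. Histones had 1 of 97, H2BC18.

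ATOH8 itself differed from every other member. It is the gene the retrovirus carried, and its SMAD3 peak had 371 tags on an implied input background of 296.7 tags, a fold of 1.25, which was the lowest of the 277. Input and ChIP were thus both high at this gene, and bHLH factors without it number 2.

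Lists of TGF-beta pathway genes were short and gave few members. Ligands and antagonists had 2 of 51 (3.92%, 0.478 to 13.5%), receptors 0 of 19, which allows up to 17.6%, and SMADs with their regulators 1 of 42 (2.38%, 0.0603 to 12.6%). A list of TGF-beta target genes had 2 of 59 (3.39%, 0.413 to 11.7%). Of the 4 lists 3 had a percent above 1.52, each of the intervals includes 1.52%, and none of the genes had a q under 0.05. TGFB2, the ligand TGF-beta 2 and also on the target list, had 7 tags and 3.19-fold with the summit 301 bp inside its start and 41 bp from the start of the antisense gene TGFB2-AS1. GDF5, a growth factor of joint formation, had 7 tags and 2.70-fold 633 bp past its 3′ end and 315 bp from an end of GDF5-AS1. SPARC, a matrix glycoprotein, had 10 tags and 3.68-fold 795 bp inside its start. PIAS1, a SUMO ligase that modifies SMAD4, had 7 tags and 3.07-fold 621 bp inside its start.

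Signalling and membrane families also stayed near the background. Protein kinases had 7 of 406 (1.72%, 0.696 to 3.52%), led by SRC at 3.37-fold and MAP4K1 at 3.35-fold, with RPS6KL1, ERBB2, TAOK1 and MAP2K5 at 2.68- to 3.09-fold. G protein-coupled receptors had 6 of 353 (1.70%), where GPR157 was followed by GPR82, F2RL3, a thrombin receptor with the summit 16 bp inside its start, HTR2B and MRGPRX3. Ion channels had 7 of 358 (1.96%), with P2RX1, CLCN2, RYR1 and CHRNA5, a nicotinic receptor subunit, ahead of GJC3 and TMC6. Ubiquitin and proteasome genes had 9 of 603 (1.49%), including FBXO4, FBXO40, DTX1, CBLB and FBXO17, and cytokines and growth factors with their receptors 6 of 405 (1.48%), including IL15RA, FGF8, TGFB2, EFNA1, IFNL1 and GDF5. Solute carriers and transporters had 5 of 513 (0.975%), small GTPases and their regulators 4 of 465 (0.860%), and phosphatases 2 of 199 (1.01%). The small GTPase pattern counted GNAO1, a heterotrimeric G protein gene, and missed members such as RHEBL1, RABGAP1L and CYTH1. Its share therefore depends on the pattern.

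Cytoskeleton, motors and cilia had 10 of 493 (2.03%, 0.977 to 3.70%). CEP170B led at 4.11-fold, followed by DNAAF8 and DNAAF10, of dynein arm assembly, FLNC, a muscle filamin, WASHC4 and ARPC1A, of actin branching, at 3.19- to 3.86-fold. Extracellular matrix and adhesion genes had 4 of 415 (0.964%, 0.263 to 2.45%), namely SPOCK1, SPARC, SDC2 and P3H3, the last a collagen prolyl hydroxylase. A role group of membrane traffic, made after the members were seen and so given no share, held 24 genes at a median fold of 3.22. It included CLTC, the clathrin heavy chain, EXOC6 of the exocyst, VPS41 of the HOPS complex and GORASP2 of Golgi stacking. Enzymes of intermediary metabolism, a group made in the same way, held 21 genes at a median of 3.18, such as GLUD1, ALDH18A1, PFKM, FDPS and GFPT1. The sizes of these groups were not set against all genes of their kind.

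Members also included genes known for expression in other tissues, with percents on both sides of 1.52. Olfactory receptors had 2 of 392 (0.510%, 0.0618 to 1.83%), OR51B5 and OR6K6, and keratins with epidermal proteins 1 of 275 (0.364%, 0.00921 to 2.01%), KRTAP10-9. Immune and blood proteins had 7 of 382 (1.83%, 0.740 to 3.74%), where HBA2, CD8B, HBE1, GNLY, a cytotoxic granule protein, and FCGR2A, an Fc receptor, stood at 3.38- to 5.41-fold. CD164L2 and CLEC16A, also counted there, came in through their symbols. Cytochromes P450 and lipid metabolism had 6 of 437 (1.37%), with CLPS and CYB5R1 past the q threshold. APOLD1 entered that list through its symbol. Cancer-testis and X-linked multicopy families had 6 of 313 (1.92%), VCX3A, GAGE10, GAGE12J, NPIPB13, GOLGA8B and GOLGA6C. NPIPB13, on chromosome 16, and GOLGA8B and GOLGA6C, on chromosome 15, are not X-linked and came in through the symbol pattern. All 6 genes have near-identical copies, so the copy that a peak belongs to is uncertain, as it is for the FAM90A and many LOC models. Gene models without a functional name had 28 of 1639 (1.71%, 1.14 to 2.46%), with LOC122394732, C9orf72 and TMEM141 the highest.

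Few gene-end peaks overlapped a FLAG peak. A FLAG peak overlapped 4 of the 277 SMAD3 peaks (1.44%, 0.395 to 3.66%), against 3.13% of all SMAD3 peaks, which the interval includes. That background was 0.515% of peaks inside genes, 0.646% of those outside genes but within 250 kb, and 12.3% of those farther away. The 4 were at ALKBH5, EEF1A1, PIAS1 and ATOH8, and of these only ALKBH5 had a q under 0.05 in both lists. EEF1A1 and ATOH8 reached it in the FLAG list alone, with a −log10 q of 9.60 and 5.79. In the SMAD3 list they had 0.708 and 0.582. PIAS1 reached it in neither list. FOXD4L5 and WSCD2, a sulfotransferase-like gene, had a FLAG peak within 1 kb. Of protein-coding genes 1.8% (359) had a FLAG gene-end peak, and 10 genes had one in both lists, which is 3.29% of the 304 (1.59 to 5.97%) and 2.79% of the 359 (1.34 to 5.06%).

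These 10 genes fell into 2 kinds by the distance between their summits. At ATOH8 the summits lay 7 bp apart, at ALKBH5 81 bp, at PIAS1 220 bp, at EEF1A1 575 bp and at WSCD2 939 bp, all at the start. At SOCS3, an inhibitor of cytokine signalling, the FLAG peak was at the start and the SMAD3 peak past the 3′ end, 4782 bp away. ARPC1A, ZNF274 and ERCC6L2 had the same order at 40023, 29342 and 165190 bp, and EEPD1 the reverse at 148633 bp. Tags at the SMAD3 summit were 71 at ALKBH5, 371 at ATOH8 and 6 to 10 at the other 8, and at the FLAG summit 101, 442 and 6 to 23.

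Gene-end peaks were unevenly spread over chromosomes. Genes with a peak made up 3.04% on chromosome 16 (26 of 854, interval 1.998 to 4.43%), 2.88% on chromosome 7, 2.83% on chromosome 9 and 2.59% on chromosome 10, each with an interval above 1.52%. On chromosome 4 there were 0 of 769 genes, which allows up to 0.479%, on chromosome 13 0 of 338, up to 1.09%, and on chromosome 6 6 of 1049 (0.572%, 0.210 to 1.24%). SMAD3 peaks of any position were also few on those 3 chromosomes, at 98, 55 and 80, against 491 on chromosome 7, 490 on chromosome 9, 532 on chromosome 10 and 361 on chromosome 16. They were as few on chromosomes 18, 21, 22 and X, at 47, 78, 74 and 73. Gene-end peaks there numbered 1, 2, 3 and 9, and the gene shares had intervals that include 1.52%. The numbers of all and of gene-end peaks did not run in step on every chromosome, since chromosome 20 had 388 and 7, chromosome 8 433 and 11, and chromosome 19 246 and 24. The part of the overall peak number in this spread was not tested. Intervals of all chromosomes were read side by side, with no correction for their number.

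**Figure D4:**
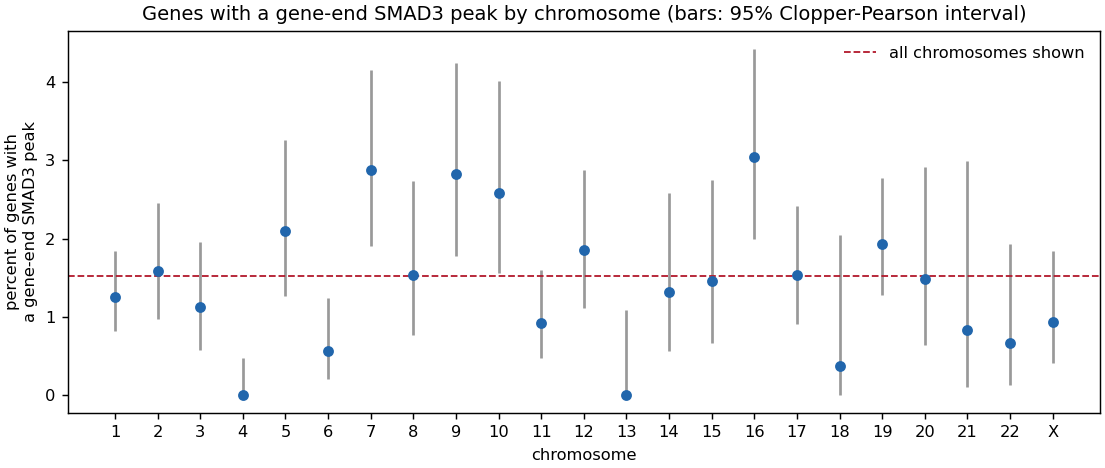
Percent of protein-coding genes with a gene-end SMAD3 peak on each chromosome, with 95% Clopper-Pearson intervals as lines and the share over all of them as a dashed line. Chromosomes 4 and 13 stand at 0, and chromosome 16 is highest at 3.04%.

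Gene length and non-coding neighbours gave further context. Genes with a peak had a median length of 27.9 kb, against 24.2 kb over all protein-coding genes, and 14.5% against 15.8% were under 5 kb. Of the 277 peaks 38 (13.7%, 9.89 to 18.3%) also lay within 1 kb of an end of a gene of another class, 29 of them of a long non-coding RNA. The same share over all protein-coding gene ends was not computed, so 13.7% has no background beside it. Besides TGFB2-AS1, the start of SND1-DT lay 65 bp from its summit and that of GNAO1-DT 212 bp, so which transcript such a peak belongs to cannot be told apart by position.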

How the data were processed

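The submitters' processing notes name Bowtie2 for alignment, MACS2 2.2.7.1 for peak calling and hg38 as the build. Per the file headers, the SMAD3 ChIP held 16857119 tags and its input 17215727 after 1 tag was kept per position, the FLAG ChIP 17133946 and its input 20785894, and the p cutoff was 0.0065. The authors deposited per peak a pileup signal in tags, a fold enrichment (a ratio, with 1 added to both the pileup and the background, which gave the implied background) and −log10 p and q values, which are called per library and were used as deposited. The header states that q values would not be calculated, yet a −log10 q was given, and this conflict was not resolved.

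Gene ends came from RefSeq of GRCh38.p14 (19970 protein-coding genes on chromosomes 1 to 22 and X), and orientation from its promoter table, which covered 15811 of them. Counts were made with Python 3.11.15, numpy 2.4.6, pandas 2.3.3 and scipy 1.17.1, and the pairing of summits with gene ends was tested on simulated data. Intervals are 95% Clopper-Pearson, and exact Poisson for densities. Members and lists were chosen with earlier results of these data known. Named are the 20 peaks of highest fold, all with a q under 0.05, genes with 2 peaks, up to 10 peaks at 2 genes, peaks near FLAG peaks, up to 6 members per family, summits in promoter windows, peaks next to the window edge and TGF-beta list members. Further names were chosen after their values were seen. A few genes under this rule are not reported here. Alternatives changed the window, threshold, gene set, overlap distance and motif windows. Exons were not used here.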

Additional observations from a re-analysis of the deposited data

How the results depend on the processing

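The share of SMAD3 peaks at gene ends was 2.094% with a 500 bp window, 9.108% with 3 kb, 2.091% among peaks with a q under 0.05, 3.0% among peaks of 4-fold or more and 9.007% with ends of all annotated genes, against 3.97%. The share of genes with a peak was 0.7862% at 500 bp, 3.6% at 3 kb, 0.05508% with a q under 0.05 and 0.07511% at 4-fold or more, against 1.52%. Wider windows and more genes cover more sequence. Of the peaks kept by the stricter thresholds, 346 of 526 and 253 of 500 lay over 250 kb from a gene, and the cause of the lower shares was not tested. The median fold of 3.08 became 4.41 under either stricter threshold, by their construction. The share at starts of 62.0% was 55.18% at 3 kb, 75% with a q under 0.05 and 83.33% at 4-fold or more, and the share with the summit inside the gene was 45.45% with a q under 0.05, against 56.7%, where few peaks are left and the cause was not tested. The share with a q under 0.05 was 1.083% at a −log10 q of 2 or more. FLAG peaks within 10 kb raised the 4 peaks to 24 (8.66%, 5.63 to 12.6%), against 15.2% of all SMAD3 peaks. That background was 7.32% of peaks inside genes, 7.39% of those outside genes but within 250 kb, and 43.5% of those farther away. Counting peak intervals in place of summits, leaving out high input background and searching the promoters of starts within 1 kb kept every share within its interval. The median fold stayed within its quartiles. The reading of GGCGC did change, since its interval included the 60.02% of all windows over 24 windows and lay above it over 151. Of the 31 family counts, 19 moved by over 1.5 times at 500 bp, 26 at 3 kb, 30 under each stricter threshold and 21 with starts only. Without CCNT1 (chosen after seeing the data) the cell cycle family had 9 genes. Families by gene description were not run, since the gene table used here has no descriptions. No paired analysis was possible because each antibody has 1 library. At 5 to 9 tags for most peaks, a few tags decide whether a gene is a member.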
